A study of Mus musculus with 36 samples.

Results

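Rab genes encode a family of small GTPases, and 59 of them were present in each of the 3 mouse count tables, which held 25239, 25229 and 48440 genes. A gene was counted as a member when its symbol was Rab followed by a number and at most a letter and a further digit, so that the rule itself used names and no measured value. RNA had been sequenced from 36 mouse libraries in 16 groups. In 20 of them, processing bodies (P-bodies, cytoplasmic granules of untranslated mRNA and decay factors) had been sorted as GFP-LSM14A particles and were compared with the cytoplasm they came from, with 2 libraries a group. These covered naive embryonic stem (ES) cells in 2i and LIF, primed ES cells moved to activin A and bFGF, mouse embryonic fibroblasts (MEFs), and fibroblasts reprogrammed for 3 days under a Nudt21 short hairpin or its control. Another 4 libraries held P-body and cytoplasmic RNA of naive ES cells with a CRISPR deletion in Ago2, and the last 12 held pooled ribosome-bound gradient fractions (polysomes) or total RNA of control and DDX6 degron ES cells, with 3 libraries a group.

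What these groups can model was limited in several ways. The cytoplasm of the P-body comparisons was the resuspended pellet of a centrifuged lysate, taken before sorting, so it still held P-bodies. The ES cells and the fibroblasts carried GFP-LSM14A from a lentivirus with an EF1a promoter, so the marker protein was made in excess of the cell's own. The fibroblasts at day 3 carried a doxycycline-inducible cassette of Oct4, Klf4, Sox2 and Myc at Col1a1, the M2-rtTA activator at Rosa26 and an EGFP reporter at Pou5f1, and only part of such a culture is expected to be reprogramming. The Ago2 knockout and the degron lines came from single-cell clones. In the degron line both Ddx6 alleles ended in an FKBP12 F36V tag. The tag lets the small molecule dTAG-13 send the protein to the proteasome. In the paper the control cells are this same line without dTAG-13, and the loss of DDX6 in the treated cells, called degron cells here, is acute. Cycloheximide was present during harvest. The cells sampled within a culture were mixed, so that fewer cells making an mRNA and less of it per cell cannot be told apart.

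Rab proteins switch between a GTP-bound form on membranes and a GDP-bound form in the cytosol. Guanine nucleotide exchange factors (GEFs) load GTP and recruit the Rab to a membrane, GTPase-activating proteins (GAPs, mostly of the TBC family) end the signal, and the GDP dissociation inhibitor (GDI) extracts the GDP form. Rab escort protein (REP) and the geranylgeranyl transferase attach the lipid anchor. Each membrane has its own members, such as Rab1 between the endoplasmic reticulum and the Golgi, Rab5 on early endosomes, Rab11 on recycling endosomes and Rab7 on late endosomes and lysosomes. Effectors that bind the GTP form tether, move and fuse vesicles.

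The members were read at a depth of 6769727 to 31185799 reads a library in the P-body table of naive, primed and fibroblast cells, 15624342 to 17486206 in the Ago2 table and 13308776 to 29362187 in the polysome table. At that depth 44 Rab genes reached 10 CPM (the reads of a gene scaled to its library total) in at least 1 library, 19 reached 100 CPM, and Rab9b stayed under 1 CPM in every library. Known targets and markers went with the labels. Nudt21 was at 5.01 to 5.96 CPM in the knockdown libraries and 89.1 to 115 in the day 3 controls, Ago2 was at 2.57 to 4.52 CPM in its knockout and 67.2 to 111 in naive cells, Fgf5 was at 29.1 to 30.9 CPM in primed and 0 in naive cytoplasm, and Col1a1 reached 11327 to 12609 CPM in fibroblast cytoplasm. Ddx6 mRNA was at 186 to 199 CPM in degron and 208 to 238 in control total RNA, which checks nothing about a degron that acts on the protein. A library that stood apart was MEF P-body replicate 2, in which the lung epithelial genes Sftpc and Scgb1a1 reached 42.4 and 43.6 CPM against 1.94 and 3.59 in replicate 1 and 0 in both cytoplasmic libraries.

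The coding sequences of the family share a stretch of the GTP-binding fold, the G3 motif, that makes the codon choice of paralogs easy to see. Shown here are the 24 bases over this motif for 3 pairs of paralogs whose members moved differently, and for Rab14, with G or C at the third position of a codon in capitals (GENCODE M21 transcripts, GRCm38, which is mm10, coding exons).
Rab5a (chr17:53497583-53497606, plus strand): tgGgatacagctggtcaagaacgG
Rab5c (chr11:100718503-100718526, minus strand): tgGgaCacagctggCcaagaGcgC
Rab6a (chr7:100629853-100629876, plus strand): tgGgaCacagcaggtcaagaGcgG
Rab6b (chr9:103161079-103161102, plus strand): tgGgaCactgctggGcaagaGagG
Rab8a (across an exon junction, plus strand of chromosome 8): tgGgaCacGgcCggCcaGgaGcgG
Rab8b (across an exon junction, minus strand of chromosome 9): tgGgaCacGgcGggCcaGgaaaga
Rab14 (chr2:35189968-35189991, minus strand): tgGgatacagcaggGcaGgaGcgG
Of the 8 codons in this window, 2 ended in G or C in Rab5a and 5 in Rab5c, 4 in Rab6a and 5 in Rab6b, and 8 in Rab8a and 6 in Rab8b.

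In naive ES cells the question was which Rab mRNAs were richer in P-bodies than in the cytoplasmic fraction they were sorted from. Of 54 Rab genes tested, 12 were higher in P-bodies and 11 lower, where 22.6% and 15.4% of all genes tested were called (edgeR quasi-likelihood test, adjusted p under 0.05). The members that rose furthest, Rab8b and Rab14, work in recycling and delivery to the plasma membrane, a role in which 3 of 10 genes tested were higher and 3 lower. Rab8b, which brings vesicles to the plasma membrane and the cilium, measured 20.1 and 18.5 CPM in sorted P-bodies and 4.93 and 5.92 in the cytoplasm. Rab14, which works between the Golgi and endosomes, had 258 and 256 CPM in P-bodies and 69.1 and 78.8 in the cytoplasm. Neither gene's groups overlapped, with log2 fold changes of 2.05 ± 0.19 (SE, n = 2 against 2; adjusted p = 0.00117) for Rab8b and 2.02 ± 0.10 (adjusted p = 0.000414) for Rab14. Groups that did not overlap were common, in 40 of the 54 Rab genes tested. Rab10, a regulator of exocytosis, also rose, from 101 and 108 CPM to 221 and 218 (1.30 ± 0.09, adjusted p = 0.000628).

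Other genes that rose in naive P-bodies belonged to several compartments. Among Golgi genes, Rab33b, which also acts in autophagosome formation, rose by 1.52 ± 0.20 (adjusted p = 0.00326) and Rab6a, for retrograde traffic, by 0.87 ± 0.10 (adjusted p = 0.00261). Rab18, of the endoplasmic reticulum and lipid droplets, rose by 0.56 ± 0.10 and Rab2b by 0.85 ± 0.17. On early endosomes Rab22a rose by 0.99 ± 0.13 and Rab5a by 0.65 ± 0.11. On late endosomes Rab9, which returns receptors to the trans-Golgi, rose by 1.13 ± 0.22 (adjusted p = 0.0128) and Rab12 by 0.58 ± 0.17, and Rab23, a brake on Hedgehog signalling, rose by 0.95 ± 0.15.

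Genes that fell in naive P-bodies included 4 of the 7 regulated-secretion members tested, with none of the 7 higher. Of these, Rab3b, a Rab of secretory granules, had 3.06 and 4.62 CPM in P-bodies and 12.8 and 17.8 in the cytoplasm, so its groups did not overlap (-1.76 ± 0.29, adjusted p = 0.00773). Rab3a (-1.27 ± 0.26), Rab37 (-2.15 ± 0.48) and Rab3d (-0.87 ± 0.24) fell too, and all 4 had means of under 10 CPM. Outside that group Rab5c fell furthest among genes of at least 10 CPM, from 18.8 and 23.8 CPM in the cytoplasm to 5.11 and 4.70 (-1.89 ± 0.20, adjusted p = 0.00182). Rab5c was far lower in these libraries than in control total RNA (123 to 129 CPM). The part of this gap in its fall was not tested. Rab4b, a Rab of fast recycling, fell from 88.7 and 71.6 to 39.4 and 38.4 CPM (-0.83 ± 0.16, adjusted p = 0.0131). In GENCODE M21 Rab4b shares exons with Gm21983 on its own strand, and whether this touched its read counts was not tested.

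Rab1a and Rab7, the members of the early secretory path and of late endosomes, were not called in naive cells. Rab1a had 134 and 138 CPM in P-bodies and 162 and 200 in the cytoplasm, and Rab7 had 137 and 147 against 218 and 171. The P-body values lay below the cytoplasmic ones for both genes, but once libraries were scaled by the trimmed mean of M-values (TMM) the log2 fold changes were -0.19 ± 0.11 (adjusted p = 0.249) and -0.24 ± 0.16 (adjusted p = 0.298). The naive counts depended on both P-body libraries, since fewer Rab genes were called when either was left out. The count over all genes also moved widely when a library was left out. Rab8b, Rab14, Rab10 and Rab5c kept their calls in each of the 4 fits that left out a library, and Rab9 and Rab33b in 2 of the 4.

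In primed ES cells 17 of 56 Rab genes were higher in P-bodies and 6 lower, where 26.5% and 24.2% of all genes were called. Rab14 had 247 and 228 CPM in P-bodies and 117 in both cytoplasmic libraries (1.06 ± 0.07, adjusted p = 5.44e-08). Rab21, which carries integrins into early endosomes, had the highest fold change among genes of at least 10 CPM, with 23.0 and 21.5 CPM in P-bodies against 2.22 and 8.23 in the cytoplasm (2.07 ± 0.31, adjusted p = 0.000112). Both genes had P-body values above every cytoplasmic one, and the cytoplasmic libraries of Rab21 lay far apart. The low counts of Rab21 in these libraries are taken up below with the levels. The groups did not overlap in 43 of the 56 Rab genes. Rab13, a Rab of tight junctions, rose by 0.88 ± 0.17 (adjusted p = 0.000879), and Rab29, of the trans-Golgi and lysosome, by 1.15 ± 0.21 at a mean of under 10 CPM.

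Recycling genes made up the largest share of the primed rises, with 6 of 10 higher and 3 lower. Rab11a, the recycling endosome Rab, had 100 and 97.5 CPM in P-bodies and 59.5 and 66.8 in the cytoplasm (0.68 ± 0.09, adjusted p = 2.62e-05). Rab8a (0.41 ± 0.09) and Rab8b (0.50 ± 0.12) both rose. Genes that fell were Rab3b (-1.17 ± 0.16, adjusted p = 5.08e-05), Rab34, which acts in cilium formation (-0.66 ± 0.09, adjusted p = 5.69e-05), Rab15, an endosomal Rab abundant in nerve cells (-0.60 ± 0.10), Rab35 (-0.52 ± 0.18), Rab25 and, by little, Rab1a (-0.20 ± 0.06, adjusted p = 0.0196). Rab7 was at -0.02 ± 0.08 (adjusted p = 0.881), with 138 and 148 CPM in P-bodies and 139 and 157 in the cytoplasm, which overlapped.

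In MEFs 16 of 57 Rab genes were higher in P-bodies and 17 lower, where 26.6% and 28.7% of all genes were called. The rises were most frequent on late endosomes and lysosomes, with 7 of 11 higher and 1 lower. Rab24, which acts in autophagy, had 135 and 126 CPM in P-bodies and 55.3 and 57.5 in the cytoplasm (1.19 ± 0.09, adjusted p = 1.05e-05), with no overlap. Its exons overlap those of Prelid1 on the opposite strand, and the kit did not mark strand. Rab9 rose by 0.94 ± 0.10 (adjusted p = 6.16e-05) and Rab29 by 0.85 ± 0.16. Rab21 rose by 1.24 ± 0.21 (27.1 and 27.5 CPM against 8.56 and 14.3) and Rab4b by 1.11 ± 0.10 (81.6 and 86.4 CPM against 37.5 and 39.5, adjusted p = 1.73e-05).

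The genes that fell in MEF P-bodies included several that rose in ES cells. Rab23 had 26 and 30.2 CPM in P-bodies and 66.3 and 67.5 in the cytoplasm (-1.27 ± 0.11, adjusted p = 1.66e-05). Rab8b had 29.1 and 30.8 against 61.6 and 60.6 (-1.05 ± 0.10, adjusted p = 2.91e-05), and Rab43, a Golgi Rab, had 22.7 and 21.1 against 48.4 and 47.6 (-1.15 ± 0.11, adjusted p = 2.41e-05). In all 3 genes every P-body value lay below every cytoplasmic one. The groups did not overlap in 46 of the 57 Rab genes, in either direction. Rab10 fell by 0.66 ± 0.09 on the log2 scale, Rab18 by 0.68 ± 0.09 and Rab31 by 0.84 ± 0.11. Rab1a fell by 0.31 ± 0.08 (adjusted p = 0.00917) and Rab7 by 0.31 ± 0.08 (adjusted p = 0.00971).

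The count of MEF calls rested on both cytoplasmic libraries. Fewer Rab genes were called without either of them, and the count over all genes moved too when a library was left out. Rab9, Rab21, Rab24, Rab4b, Rab23, Rab43, Rab8b, Rab10 and Rab18 kept their calls in each of the 4 such fits, and Rab14 in 2 of the 4. Without MEF P-body replicate 2, the library with the lung genes, more Rab genes were called than with it.

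**Figure D1:**
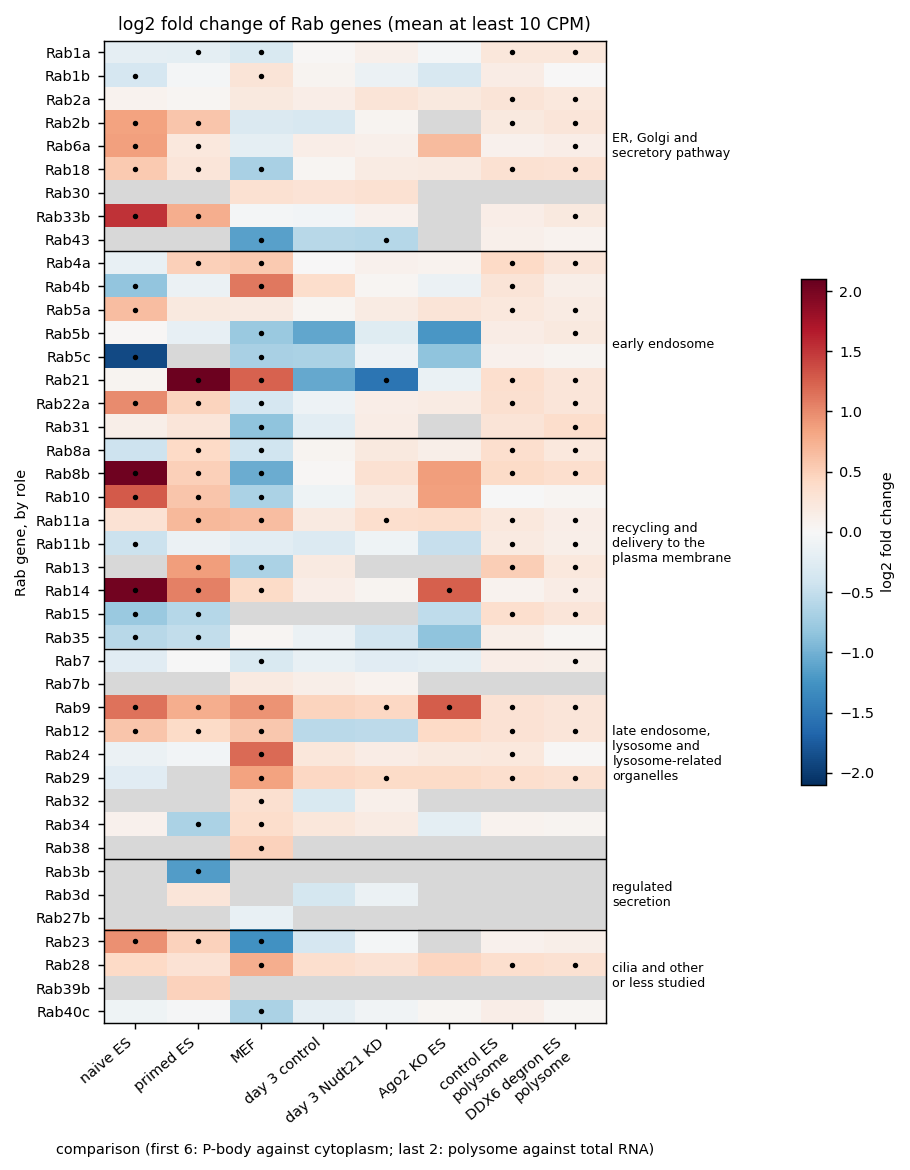
Log2 fold change of 42 Rab genes (rows, by role) in 6 comparisons of P-body with cytoplasm and 2 of polysome with total RNA (columns), red for higher in P-body or polysome and blue for lower, with a black dot where the gene was called and grey where its mean was under 10 CPM. Rab14 and Rab9 are red in the naive, primed, MEF and Ago2 knockout columns, Rab8b, Rab10 and Rab23 turn from red in naive cells to blue in MEFs, and the 2 polysome columns are pale red almost throughout.

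Set side by side, the naive, primed and MEF comparisons gave the same call to few members. Of 52 Rab genes tested in all 3, Rab9, Rab12 and Rab14 were higher in P-bodies in each (5.77%, where 5.32% of all genes were), and Rab15 was lower in each (1.92%, where 4.5% of all genes were). Another 5, Rab8b, Rab10, Rab18, Rab22a and Rab23, were higher in naive and lower in MEF P-bodies (9.62%, where 8.54% of all genes were). The opposite, lower in naive and higher in MEF P-bodies, was seen for Rab1b, Rab3a, Rab3b and Rab4b (7.69%, where 4.41% of all genes were). Naive and primed cells shared 11 of 54 rises (20.4%, where 15.9% of all genes were) and 3 of 54 falls, those of Rab3b, Rab15 and Rab35 (5.56%, where 8.22% of all genes were). No test set these shares apart from those over all genes.

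The difference in P-body enrichment between cell types was tested directly. Between naive cells and MEFs it was called for 28 of 59 Rab genes, 15 with the higher enrichment in naive cells and 13 in MEFs, where 21.5% and 19.8% of all genes were called. The largest were Rab8b (2.91 ± 0.20, adjusted p = 9.04e-06), Rab23 (2.03 ± 0.20, adjusted p = 4.13e-05) and Rab10 (1.76 ± 0.14, adjusted p = 1.66e-05) towards naive cells. Towards MEFs they were Rab4b (-2.12 ± 0.19, adjusted p = 2.57e-05), Rab24 (-1.50 ± 0.16, adjusted p = 7.64e-05) and Rab5c (-1.41 ± 0.27, adjusted p = 0.00201). Rab5c was lower in P-bodies in both cell types, and further so in naive cells.

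Between naive and primed ES cells the enrichment differed for 18 of 57 Rab genes, 5 higher in naive and 13 in primed cells, where 13.9% and 11.4% of all genes were called. Naive cells had the higher enrichment of Rab8b (1.40 ± 0.22, adjusted p = 0.00235), Rab14 (0.83 ± 0.12, adjusted p = 0.00159) and Rab34 (0.60 ± 0.17, adjusted p = 0.0317). Primed cells had it for Rab21 (-2.17 ± 0.57, adjusted p = 0.0234), Rab29 (-1.52 ± 0.25, adjusted p = 0.00319) and Rab3d, a Rab of secretory granules (-1.26 ± 0.25, adjusted p = 0.00708). The naive libraries entered both of these tests. Between naive and primed cells fewer Rab genes were called without either naive P-body library, either primed one or primed cytoplasm replicate 1. The count over all genes moved too when a library was left out. Rab8b, Rab14 and Rab29 kept their calls in each of the 8 fits that left out a library, Rab3d in 7, Rab21 in 4 and Rab34 in 2.

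**Figure D2:**
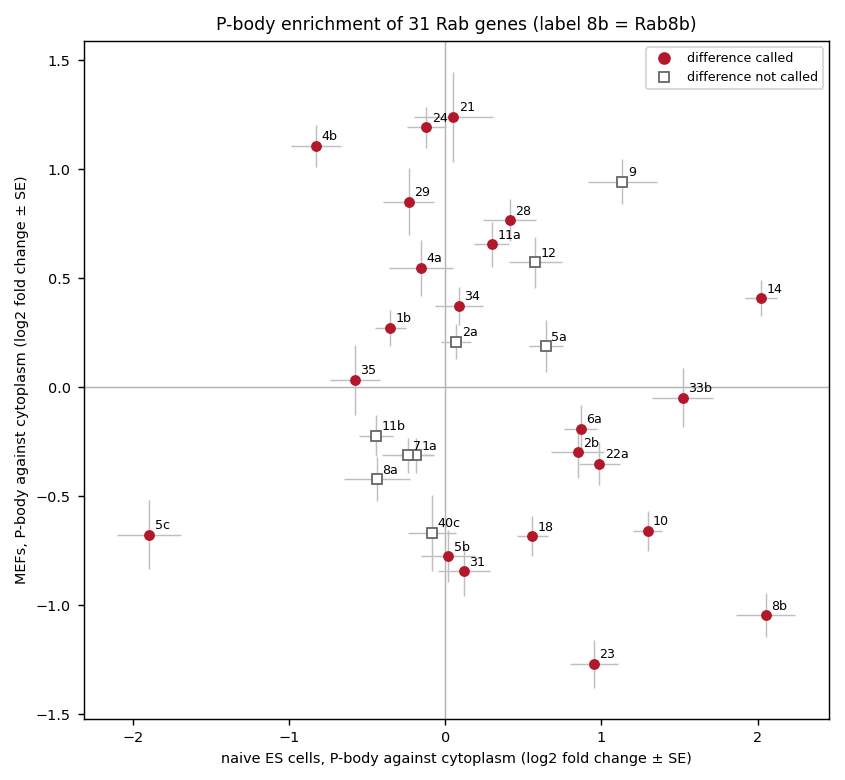
P-body against cytoplasm log2 fold change of 31 Rab genes in naive ES cells (x axis) and MEFs (y axis), with SE bars. Filled red circles mark genes whose difference between the cell types was called, open squares the others. Rab8b, Rab10 and Rab23 lie at the lower right, high in naive and low in MEF P-bodies, and Rab4b lies at the upper left.

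**Figure D3:**
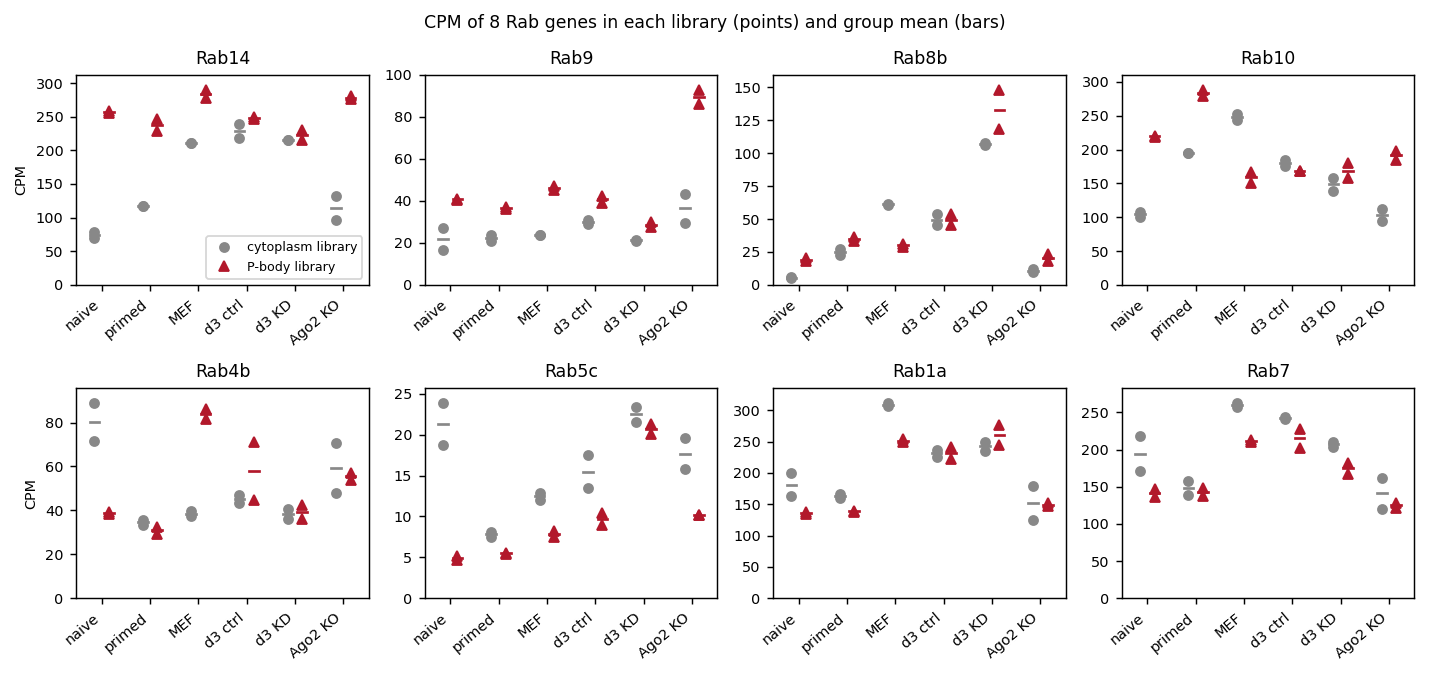
CPM of 8 Rab genes in each library, with grey circles for cytoplasm, red triangles for P-bodies and bars for group means, for naive, primed, MEF, day 3 control (d3 ctrl), day 3 Nudt21 knockdown (d3 KD) and Ago2 knockout cells. Rab9 triangles lie above the circles in all 6 conditions, whereas Rab8b and Rab10 triangles lie above them in naive and primed cells and below them in MEFs.

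Paralogs could part ways within the same cells. In naive cells Rab5a rose by 0.65 while Rab5c stood at -1.89, and Rab8b rose by 2.05 while Rab8a, with 69.5 and 68.0 CPM in P-bodies and 127 and 88.4 in the cytoplasm, was not called (-0.44 ± 0.21, adjusted p = 0.158). Rab6a rose by 0.87 and the scarce Rab6b was lower (-1.67 ± 0.44), with 0.650 and 0.796 CPM in P-bodies and 3.13 and 2.27 in the cytoplasm. Rab11b fell by 0.44 on the log2 scale while Rab11a was not called at 0.30 (adjusted p = 0.0877). In primed cells Rab11a rose by 0.68 and Rab11b was at -0.12, and in MEFs Rab1b rose by 0.27 while Rab1a stood at -0.31. The differences between paralogs were not themselves tested, and neither was the part of the low Rab5c counts in these libraries.

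In naive cells the risers of the Rab5, Rab6 and Rab8 pairs were the members with less G and C, whereas Rab2b rose by 0.85 and Rab2a, with less G and C, was not called (0.07). Over the whole transcript G and C made up 40.6% of Rab8b and 49.4% of Rab8a, 42.3% of Rab5a and 54.7% of Rab5c, 44.6% of Rab6a and 51.4% of Rab6b, 46.9% of Rab2b and 44.4% of Rab2a, and 43.0% of Rab14. At the third codon position the shares were 51.9% in Rab8b against 69.7% in Rab8a, 31.5% in Rab5a against 63.8% in Rab5c, 47.8% in Rab6a against 72.7% in Rab6b, and 39.6% in Rab11a against 67.6% in Rab11b. In the Rab2 pair this share went the other way, with 58.1% in Rab2b against 45.5% in Rab2a. The G3 windows above show the lower share of the riser in single codons for the Rab5, Rab6 and Rab8 pairs. The windows of Rab11a and Rab11b, not printed, did not differ, with 6 of 8 codons ending in G or C in each.

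Across the Rab genes of at least 10 CPM, the log2 fold change went down with GC content in the ES cells and not in MEFs. Spearman's rho across genes was -0.627 over 32 Rab genes in naive cells (-0.699 over 9193 genes of all kinds), -0.490 over 34 in primed cells (-0.454 over 9698) and 0.009 over 38 in MEFs (-0.056 over 9114). In Ago2 knockout cells it was -0.526 over 28 Rab genes and -0.570 over all genes. At day 3 it was -0.100 over 37 Rab genes in the control (-0.295 over all genes) and -0.421 over 36 with Nudt21 knocked down (-0.338 over all genes). In MEFs transcript length gave -0.540 for Rab genes and -0.603 for all genes. Genes within a library share its depth and its base composition bias and are not independent replicates, so these are descriptions only.

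**Figure D4:**
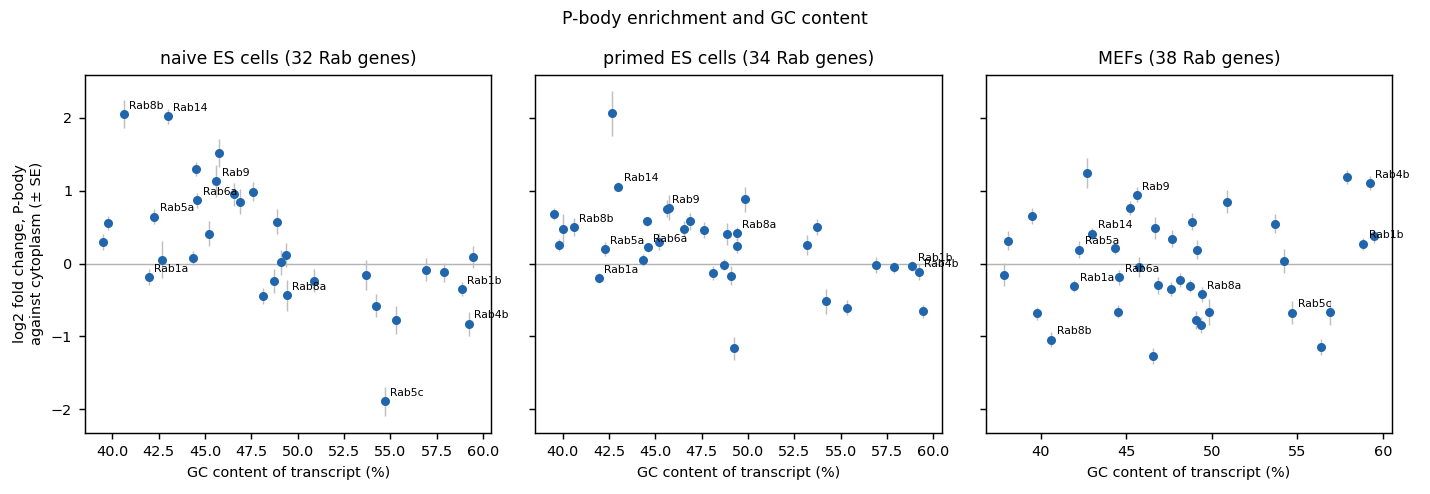
GC content of the transcript in % (x axis) against the P-body against cytoplasm log2 fold change with SE bars (y axis) for 32 Rab genes in naive, 34 in primed and 38 in MEF cells. The points fall from upper left to lower right in naive and primed cells, with Rab8b and Rab14 at the upper left and Rab5c at the lower right of the naive panel, and show no slope in MEFs.

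Since Ago2 is the slicing Argonaute that carries microRNAs, the Rab transcripts with a let-7 seed match are shown beside the knockout. Capitals mark the seed, bases 2 to 8, of let-7a-5p (RefSeq, GRCm38.p6) and its match, CTACCTC, searched on the transcript strand in the 3′ UTR.
let-7a-5p: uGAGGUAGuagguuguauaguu
Rab11b (chr17:33744153-33744181, minus strand): tctacctgcctCTACCTCctgaatgctgg
Rab15 (chr12:76799412-76799440, minus strand): acctctgttctCTACCTCccatgcctctc
Rab37 (chr11:115161274-115161302, plus strand): agtctgcttggCTACCTCtggctttccca
Rab40c (chr17:25882539-25882567, minus strand): ggtgcttaactCTACCTCctgccctcagg
Rab6b (chr9:103184513-103184541, plus strand): tagtttctaaaCTACCTCtcccccaagaa
Only 5 of 59 Rab genes (8.47%) held the match, as did 1855 of 20952 coding genes (8.85%), and a match is not evidence of a working site. In naive P-bodies Rab37 (-2.15), Rab6b (-1.67), Rab15 (-0.78) and Rab11b (-0.44) were lower and Rab40c was not called (-0.08). In Ago2 knockout cells none of the 5 was called, with Rab15 at -0.53 ± 0.27, Rab11b at -0.49 ± 0.23, Rab6b at -0.58 ± 0.37, Rab37 at -0.29 ± 0.93 and Rab40c at 0.04 ± 0.25.

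In Ago2 knockout ES cells 2 of 57 Rab genes were higher in P-bodies and none lower, where 5.47% and 1.05% of all genes were called. More Rab genes were called when equal replicate numbers were taken as pairs. Among Rab genes with a value below 0, 3 had an unadjusted p under 0.05, and DESeq2 called 1. The shares over all genes at these 2 settings are not given here, so neither count can be called many or few. The 2 called higher were Rab9 and Rab14, which were also called higher in naive, primed and MEF P-bodies. Rab9 had 92.6 and 85.8 CPM in P-bodies and 43.0 and 29.6 in the cytoplasm (1.27 ± 0.25, adjusted p = 0.0198), and Rab14 had 280 and 277 against 132 and 96.6 (1.26 ± 0.27, adjusted p = 0.0297). Neither gene's groups overlapped, which held for 27 of the 57 Rab genes. Rab10, at 0.86, and Rab8b, at 0.88 ± 0.28, were not called (adjusted p = 0.0831 and 0.0988), nor was Rab1a (-0.05) or Rab7 (-0.20).

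The cytoplasmic libraries of the knockout differed from each other by more than any other replicate pair, since the chi-square of their counts divided by its degrees of freedom was 306, the top of a range that began at 1.78 over 24 pairs. Rab reads made up 0.194% of cytoplasm replicate 1 and 0.147% of replicate 2. The count of calls moved with the library left out, over all genes as well. More Rab genes were called without either cytoplasmic library and fewer without either P-body library. These libraries were counted and normalized apart from the naive wild-type ones, so no difference between the genotypes was tested.

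At day 3 of reprogramming few Rab genes were called. In the control 0 of 56 Rab genes were called with edgeR, where 0.646% of all genes were, and 10 had an unadjusted p under 0.05 (24.7% of all genes). DESeq2 called 2, and its share over all genes is not given here. Among genes of at least 10 CPM the lowest values were those of Rab5b (-1.10 ± 0.37, adjusted p = 0.150) and Rab21, the latter with 9.25 and 9.80 CPM in P-bodies and 17.5 and 23.1 in the cytoplasm (-1.08, adjusted p = 0.0671). Rab9 was at 0.46 (adjusted p = 0.137), Rab1a at 0.02 and Rab7 at -0.15. The 2 P-body libraries decided this count, since many more Rab genes were called without either. The count over all genes moved widely too when a library was left out.

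With Nudt21, a factor that chooses distal polyadenylation sites, knocked down, 3 of 56 Rab genes were higher in P-bodies and 2 lower, where 9.04% and 12.8% of all genes were called. Rab21 fell, from 42.4 and 32.8 CPM in the cytoplasm to 12.1 and 13.9 in P-bodies (-1.53 ± 0.15, adjusted p = 0.000288), and kept its call in each of the 4 fits that left out a library. Rab43 fell to 13.8 and 22.1 CPM from 27.2 and 27.4 (-0.59 ± 0.19, adjusted p = 0.0483). Rab9 (0.44, adjusted p = 0.0329), Rab29 (0.41, adjusted p = 0.0405) and Rab11a (0.36, adjusted p = 0.0401) rose. Rab1a was at 0.11 and Rab7 at -0.24, neither called. The count rose without either P-body library and fell without either cytoplasmic library. Over all genes it moved too when a library was left out.

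The effect of the knockdown on P-body enrichment was tested as a difference between the day 3 comparisons. With edgeR and with DESeq2 0 of 58 Rab genes were called, where 0.0118% of all genes were, and 5 had an unadjusted p under 0.05 (4.83% of all genes). Without the day 3 control P-body replicate 1 some Rab genes were called with edgeR, and the count over all genes also moved when a library was left out. Rab9 and Rab29 had almost the same values in control and knockdown (0.46 and 0.44 for Rab9, 0.43 and 0.41 for Rab29). The sign of Rab21 was negative at day 3 and positive in primed cells and MEFs, a contrast between conditions that was not tested.

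Polysomes held more Rab mRNA than total RNA did. In control ES cells 24 of 55 Rab genes had higher ribosome occupancy (the log2 ratio of polysome to total RNA) and 0 were lower, where 18.8% of all genes were called higher and 24.1% lower. No Rab gene was lower at an unadjusted p under 0.05 or by DESeq2. Rab reads made up 0.313 to 0.329% of the polysome libraries and 0.250 to 0.253% of total RNA. Rab1a had 343, 346 and 319 CPM on polysomes and 267, 256 and 237 in total RNA, so the groups did not overlap. Its occupancy was 0.24 ± 0.06 (SE, n = 3 against 3; adjusted p = 0.00465), and that of Rab7, with 306, 320 and 302 CPM against 258, 246 and 248, was 0.13 (adjusted p = 0.0773).

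The family sat in a narrow band. Among the 34 Rab genes of at least 10 CPM, 33 were above 0, from -0.0045 for Rab10 to 0.51 for Rab13, with a median of 0.228 where the median of all such genes was -0.0049. Rab13 had 16.6, 17.7 and 17.9 CPM on polysomes and 11.1, 11.7 and 9.71 in total RNA (0.51 ± 0.11, adjusted p = 0.000815). Rab4a had 69.7, 67.3 and 63.4 against 45.9, 42.0 and 46.2 (0.41 ± 0.07, adjusted p = 0.000104), and Rab8b had 17.1, 15.8 and 15.2 against 11.2, 11.5 and 9.60 (0.40 ± 0.11, adjusted p = 0.00523). The polysome values of these genes lay above every total RNA value. The groups did not overlap in 41 of the 55 Rab genes. Rab14 (0.07) and Rab10, which were among the strongest in naive P-bodies, were not called.

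By role, the calls were spread over the compartments, with 4 of 13 genes of the endoplasmic reticulum and Golgi, 6 of 10 of early endosomes, 6 of 10 of recycling, 4 of 9 of late endosomes and 2 of 7 of regulated secretion. Coding length went with occupancy over all genes (Spearman's rho of -0.738 over 8890 genes of at least 10 CPM) and little among Rab genes (-0.204 over 34). The coding lengths of these 34 ran only from 366 bases in Rab13 to 876 in Rab12, which limits rho within the family. The part of length in the Rab occupancy, set against genes of all lengths, was not tested. Without control total RNA replicate 2 the count was 15, all higher. Leaving out each library gave 5604 to 7210 calls over all genes.

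**Figure D5:**
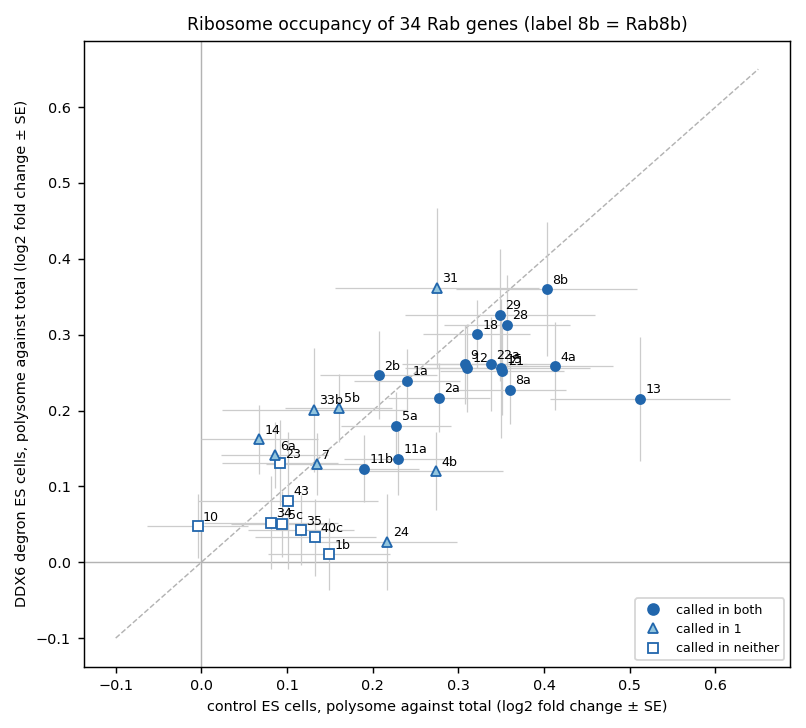
Ribosome occupancy, the log2 ratio of polysome to total RNA, of 34 Rab genes in control (x axis) and DDX6 degron (y axis) ES cells, with SE bars, with circles for genes called in both, triangles for those called in 1 and open squares for those called in neither. The points lie around the dashed line of equality and above 0 on the y axis, and Rab13 lies furthest below the line.

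After DDX6 was degraded the picture was much the same. Of 54 Rab genes 25 had higher occupancy and 0 were lower, where 24% of all genes were called higher and 26.8% lower, and here too none was lower at an unadjusted p under 0.05 or by DESeq2. Among the 34 genes of at least 10 CPM all 34 were above 0, from 0.0105 for Rab1b to 0.362 for Rab31, with a median of 0.202. Rab31, a Rab between the trans-Golgi and endosomes, had 14.1, 12.1 and 12.1 CPM on polysomes and 9.96, 8.07 and 8.42 in total RNA (0.36 ± 0.11, adjusted p = 0.00611), with no overlap. The groups did not overlap in 45 of the 54 Rab genes. Rab1a stood at 0.24 ± 0.04 (adjusted p = 4.03e-05), Rab7 at 0.13 ± 0.04 (adjusted p = 0.0103), Rab8b at 0.36 ± 0.09 and Rab29 at 0.33 ± 0.09. In both conditions 19 of 54 Rab genes were higher on polysomes (35.2%, where 16.5% of all genes were) and none was lower (where 22.9% of all genes were).

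Whether the loss of DDX6 changed occupancy was tested as a difference. With edgeR and with DESeq2 0 of 57 Rab genes were called, where 0% of all genes were with edgeR, and 2 Rab genes had an unadjusted p under 0.05 (5.16% of all genes). Among genes of at least 10 CPM the differences ran from -0.296 for Rab13 (± 0.13, adjusted p = 0.879) to 0.0899 for Rab14, and Rab1a was at 0.00. In total RNA 1 of 55 Rab genes was called, where 3.31% of all genes were. It was Rab23, with 38.9, 36.1 and 38.7 CPM in degron and 44.7, 47.6 and 44.4 in control cells (-0.26 ± 0.07, adjusted p = 0.0468), and the groups did not overlap, as in 11 of the 55 Rab genes. It was lost without control replicate 1 or 2 or any degron replicate, and without control replicate 3 the count was 6. Over all genes such fits gave 6 to 3373 calls.

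The genes that regulate Rabs were followed from lists of GDI, REP and prenylation genes, GEFs, GAPs and effectors. On control polysomes, where 18.8% of all genes were higher and 24.1% lower, 2 of 39 effectors were higher and 17 lower, and 4 of 38 GAPs were higher and 14 lower. Of 33 GEFs 6 were higher and 10 lower, near the shares over all genes, and of 8 GDI, REP and prenylation genes 3 were higher, among them Rabif, a small chaperone of Rabs (0.45), and 4 lower. In degron cells the counts were 4 and 19 of 39 for effectors and 9 and 19 of 39 for GAPs, where 24% and 26.8% of all genes were called. For GEFs they were 10 higher and 8 lower of 33, and for GDI, REP and prenylation genes 3 and 4 of 8. Many effectors and GAPs are long proteins, and the part of length in these counts was not tested.

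In naive P-bodies, where 22.6% of all genes were higher and 15.4% lower, 5 of 8 GDI, REP and prenylation genes were higher and 2 lower. Chm, which encodes the escort protein REP1, rose by 3.03, and Rabggta, the transferase's alpha subunit, was at -1.02. Effectors were higher in 14 of 38 and lower in 8, with the Rab11 effector Rab11fip2 at 2.57 and Ehbp1, which binds Rab8 and Rab10, at -1.69. GAPs were higher in 10 of 39 and lower in 5 (Tbc1d8b 2.79, Tbc1d8 -0.96), and GEFs in 6 of 33 and 7, shares near those over all genes, with the Rab35 exchange factor Dennd1b at 1.96 and the Rab5 exchange factor Rin1 at -2.08. In MEF P-bodies, where 26.6% of all genes were higher and 28.7% lower, the effector, GAP and GEF calls were more often lower than higher. Of 40 effectors 7 were higher and 20 lower, and of 39 GAPs 3 were higher and 24 lower. Of 32 GEFs 5 were higher and 19 lower, whereas of 8 GDI, REP and prenylation genes 4 were higher and 1 lower. The Rab genes themselves were divided there (16 and 17). In MEFs the log2 fold change went down with coding length over all genes (Spearman's rho of -0.605 over 9114 genes of at least 10 CPM). Among 38 Rab genes rho was 0.141. The part of length in the regulator counts was not tested.

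The cytoplasm gave the level of each Rab in the cell types. In CPM per kilobase of transcript, Rab7 was highest in control total RNA at 116 ± 3.0 (SD, n = 3), followed by Rab1a at 89.5 ± 5.33, Rab1b at 69.7 ± 6.61 and Rab5c at 63.7 ± 1.85, and the last pair lay within a single SD of each other. In naive cytoplasm Rab7 (90.0) and Rab1b (85.2) led, and in MEF cytoplasm Rab2a (163), a Golgi Rab, came before Rab7 (120), Rab1a (109) and Rab1b (96.2). Rab5c, Rab5b, Rab21 and Rab35 were far lower in the P-body table than in the polysome table, for example Rab5c at 18.8 and 23.8 CPM in naive cytoplasm and 123 to 129 in control total RNA, and Rab21 at 13.9 and 10.8 against 37.8 to 42.4. The part of this gap in their P-body calls was not tested. The tables were counted in different ways and are not compared further.

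Between MEF and naive cytoplasm 31 of 58 Rab genes were higher in MEFs and 13 lower, where 35.9% and 36% of all genes were called. Rab32, a Rab of lysosome-related organelles, had 23.1 and 25.1 CPM in MEFs and 0.626 and 0.973 in naive cells (5.16 ± 0.26, adjusted p = 6.83e-05). Rab8b rose by 3.75 ± 0.15 and Rab31 by 3.59 ± 0.12, and Rab1a by 1.03 ± 0.12 and Rab7 by 0.66 ± 0.17. Rab27b, of secretory lysosomes, had 13.2 and 16.9 CPM in MEFs and 0 reads in either naive cytoplasmic library, at least 54.4-fold higher against a floor of 3 reads a library. Lower in MEFs were Rab15 (-1.48 ± 0.20), Rab3b (-1.26 ± 0.23) and Rab4a (-0.98 ± 0.22).

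Between primed and naive cytoplasm 12 of 55 Rab genes were higher in primed cells and 11 lower, where 21.6% and 22.1% of all genes were called. Rab8b rose from 4.93 and 5.92 to 22.7 and 27.6 CPM (2.02 ± 0.23, adjusted p = 0.00169), Rab31 by 1.12 ± 0.17 and Rab34 by 0.93 ± 0.15. Rab29 had 4.43 and 4.49 CPM in primed and 18.3 and 22.2 in naive cells (-2.38 ± 0.23, adjusted p = 0.00104), and Rab5c (-1.64 ± 0.22), Rab4b (-1.42 ± 0.18) and Rab7 (-0.60 ± 0.17) were lower too. Both cytoplasmic comparisons used the same naive libraries. Rab8b stood at 4.93 to 5.92 CPM in naive, 22.7 to 27.6 in primed and 60.6 to 61.6 in MEF cytoplasm, the denominator of its P-body enrichment, and at 107 and 108 CPM in the cytoplasm of day 3 Nudt21 knockdown cells, where its enrichment was 0.32 and not called. Fewer Rab genes were called between primed and naive cytoplasm without either primed library. The count over all genes moved too when a library was left out.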

How the data were processed

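RNA-seq of 36 mouse libraries was used as the authors deposited it, in 3 tables of expected counts per gene, not normalized, in which reads shared between genes had been divided, so that 31.9%, 21.6% and 0.847% of Rab values in the P-body, Ago2 and polysome tables were not whole. The submitters' processing notes name HISAT2, featureCounts, DESeq2 and mm10, and the study's methods name salmon for the polysome table, while the tool behind the Ago2 table is not given in its methods and its deposited name points to salmon. Expected counts were rounded to whole numbers. The tests had been planned for whole counts. Genes whose reads in a fit added up to 10 or more were tested with edgeR 4.0.16 in R 4.3.3 (TMM scaling, quasi-likelihood F-test, two-sided), on only the groups compared, and called at a Benjamini-Hochberg adjusted p under 0.05 over all genes. A difference between conditions was tested as an interaction over 4 groups. The SE was derived from the F statistic. DESeq2 1.42.0 and other filters, scalings, a replicate block and leaving out each library were alternatives. CPM of single libraries used the library total. The fits were tried on simulated data with the same dispersion for every gene, for naive P-bodies, control occupancy and the naive to primed difference. The deposited replicates varied far more unevenly, so this does not show how the fits behave on them.

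The family and the lists were chosen with earlier results of these data known, although the rule for members reads only symbols. Named were Rab1a, Rab7, up to 3 called Rab genes a direction and comparison with a mean of at least 10 CPM, and paralogs and regulators of preset lists. Further members were named after their values were seen. GENCODE M21 gave a coding transcript for all 59 Rab genes. Of the 59, 19 overlap exons of another gene, 14 of these on the opposite strand, and the P-body kit did not mark strand. The study describes its sequencing replicates as biological. Deposited tables of the authors' own comparisons hold fold changes and p-values and were not used. No replicate pair agreed within sampling noise. A gene of the regulator lists is not reported here by name.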

Additional observations from a re-analysis of the deposited data

Results flagged for a closer look

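Chosen for a closer look were 12 differences in P-body enrichment that passed the interaction test, the 3 furthest from 0 in each direction among genes with a mean of at least 10 CPM. Between naive and primed ES cells the log2 fold change differed by 1.40 for Rab8b, 0.83 for Rab14 and 0.60 for Rab34, with the higher value in naive cells, and by -2.17 for Rab21, -1.52 for Rab29 and -1.26 for Rab3d, with the higher value in primed cells. For Rab21 and Rab29 the primed cytoplasm was low (2.22 and 8.23 CPM, 4.43 and 4.49 CPM).

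Between naive ES cells and MEFs it differed by 2.91 for Rab8b, 2.03 for Rab23 and 1.76 for Rab10 towards naive cells, and by -2.12 for Rab4b, -1.50 for Rab24 and -1.41 for Rab5c towards MEFs. Rab4b, Rab10 and Rab24 share exon bases with another gene, and the part of this in their values was not tested.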

How the results depend on the processing

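Beside the main values, 190 named values were recomputed under the alternatives. No called value changed sign, and 5 that were not called did. Leaving out each library gave -0.17 to 0.30 for Rab21 and -0.25 to 0.11 for Rab40c in naive cells, -0.11 to 0.0782 for Rab7 in primed cells (0.0199 with all libraries in a single fit), and -0.0141 to 0.0560 for Rab1a in the day 3 control and -0.25 to 0.0380 in Ago2 knockout cells.

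Leaving out each library gave 5 to 34 Rab calls in naive P-bodies, 19 to 24 in primed, 15 to 40 in MEFs, 0 to 29 in the day 3 control, 1 to 12 with Nudt21 knocked down and 0 to 14 in Ago2 knockout cells. Occupancy gave 15 to 28 calls in control and 21 to 24 in degron cells, total RNA 0 to 6, and cytoplasm 3 to 33 for primed and 34 to 49 for MEFs against naive cells. The differences gave 7 to 26 between naive and primed cells, 19 to 31 between naive cells and MEFs, 0 to 6 for the knockdown and 0 for DDX6.

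Other settings moved 4 counts by over 1.5 times. In Ago2 knockout cells 2 calls became 4 with DESeq2, 7 with no filter and 11 with the replicate block. With Nudt21 knocked down 5 became 8, 9 and 8. In the day 3 control 0 became 2, 3 and 2, and 9 with all libraries in a single fit. In total RNA 1 became 2, 3 and 0, and 3 with all libraries. The counts over all genes under these settings are not set beside them here, and the cause was not tested. Another scaling shifted the median of all genes by at most 0.0755.

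In the paper each total RNA sample was part of a lysate that was fractionated, and P-bodies were sorted from their own cytoplasmic fraction. These libraries thus came in pairs by preparation. No source states that equal replicate numbers mark those pairs, so the main tests left the pairing out. The correlation of deviations between libraries of the same number was -0.063 in naive, 0.083 in primed, -0.006 in MEF, 0.171 and 0.199 in day 3 and 0.541 in Ago2 knockout cells (each library closest to its own number in the primed, day 3 and Ago2 knockout groups), from -0.038 to 0.274 for polysome against total RNA, and from -0.322 to -0.005 between the total RNA groups, and in none of these last 3 comparisons was each library closest to its own number. The block moved no other count by over 1.5 times. For the cytoplasmic comparisons no paired analysis was possible because different cell types share no culture. The depth of the shallowest library, 6769727 reads, limits genes of a few CPM.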
